A study of Mus musculus with 35 samples.

Results

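The genes of the voltage-gated calcium and sodium channels were compared between the hippocampus and the amygdala of A/J and C57BL/6J mice. Their members are all probes whose platform gene symbol starts with Cacna, Cacnb or Cacng, or with Scn and a digit, which gave 42 of 24620 probes, for 28 genes. RNA from tissue punches of adult, test-naive male mice aged 3 to 4 months was hybridized to Illumina MouseRef-8 bead arrays, on which each probe is a long oligonucleotide matched to one transcript. There were 9 arrays of A/J hippocampus, 8 of A/J amygdala, 9 of C57BL/6J hippocampus and 9 of C57BL/6J amygdala, 35 in all. A/J and C57BL/6J are inbred strains, and no group carried a transgene or received a treatment by the labels. Punches of a region hold all of its cell types and can take in neighbouring tissue, and the probes were designed on C57BL/6J sequence, so that a base difference under a probe could lower the A/J signal. Whether the channel probes hold such differences was not tested.

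Voltage-gated calcium channels open when the membrane is depolarized and let calcium into the cell, where it triggers transmitter release, gene expression and burst firing. The pore is an alpha1 subunit (Cacna1 genes), and it works with a beta subunit inside the cell (Cacnb), an alpha2delta subunit outside it (Cacna2d) and, in some channels, a gamma subunit (Cacng). Most of the brain's gamma proteins are better known as transmembrane AMPA receptor regulatory proteins, which carry AMPA-type glutamate receptors to the synapse and change their gating. Voltage-gated sodium channels start the action potential, with an alpha subunit as the pore (Scn1a and its relatives) and small beta subunits (such as Scn3b) that modify it. In hippocampus and amygdala these proteins set excitability and transmitter release.

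An array counted as detecting a probe when its detection p, which compares the probe with negative control beads, was under 0.01. The arrays detected 6312 to 10722 probes in A/J hippocampus, 6549 to 10751 in A/J amygdala, 6099 to 9239 in C57BL/6J hippocampus and 6243 to 11039 in C57BL/6J amygdala, so the arrays differed in depth within every group. They lay on 11 chips, of which 21 arrays on 7 chips and 14 arrays on 4 chips had IDs with different first digits and are called chip lots 1 and 2 here. The labelled regions were set beside marker lists, which were written with earlier results of these data known. Of 8 tested markers of dentate gyrus and hippocampal pyramidal cells, 6 were higher and 1 (Wfs1) was lower in hippocampus. The summed level of a list takes in all its genes that have a probe, tested or not. For this list it was 6230 to 15500 in hippocampus arrays and 2250 to 3850 in amygdala arrays. Of 8 tested amygdala markers, 5 were lower and 1 (Prkcd, also on the thalamus list) was higher in hippocampus, and the sums overlapped (927 to 2520 in hippocampus and 2260 to 4390 in amygdala). Among the lower ones, Isl1 and Tacr1 were each detected on 0 hippocampus and 17 amygdala arrays, so they were tested through amygdala alone. The amygdala punches also held striatal markers. All 7 tested genes of that list were lower in hippocampus, and the sum of the list was 351 to 646 in hippocampus arrays and 1230 to 10500 in amygdala arrays. Of the tested genes Penk, Drd2 and Rxrg were detected on 0, 1 and 5 hippocampus arrays and so were tested through amygdala.

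Of the 42 channel probes, 20 were tested because 8 or more arrays, as many as A/J amygdala has, detected them. These 20 stand for 18 genes. This is 47.6% of the channel probes, against 42.3% of all probes on the array (10408 of 24620). Of the other 22 probes, 16 were detected on 0 arrays and 6 on between 1 and 7. Detection differed between the subunit classes. All 3 alpha2delta probes were detected on all 35 arrays, whereas 6 of 17 alpha1 calcium probes, 3 of 5 beta, 5 of 8 gamma, 2 of 6 sodium alpha and 1 of 3 sodium beta probes were tested.

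**Figure D1:**
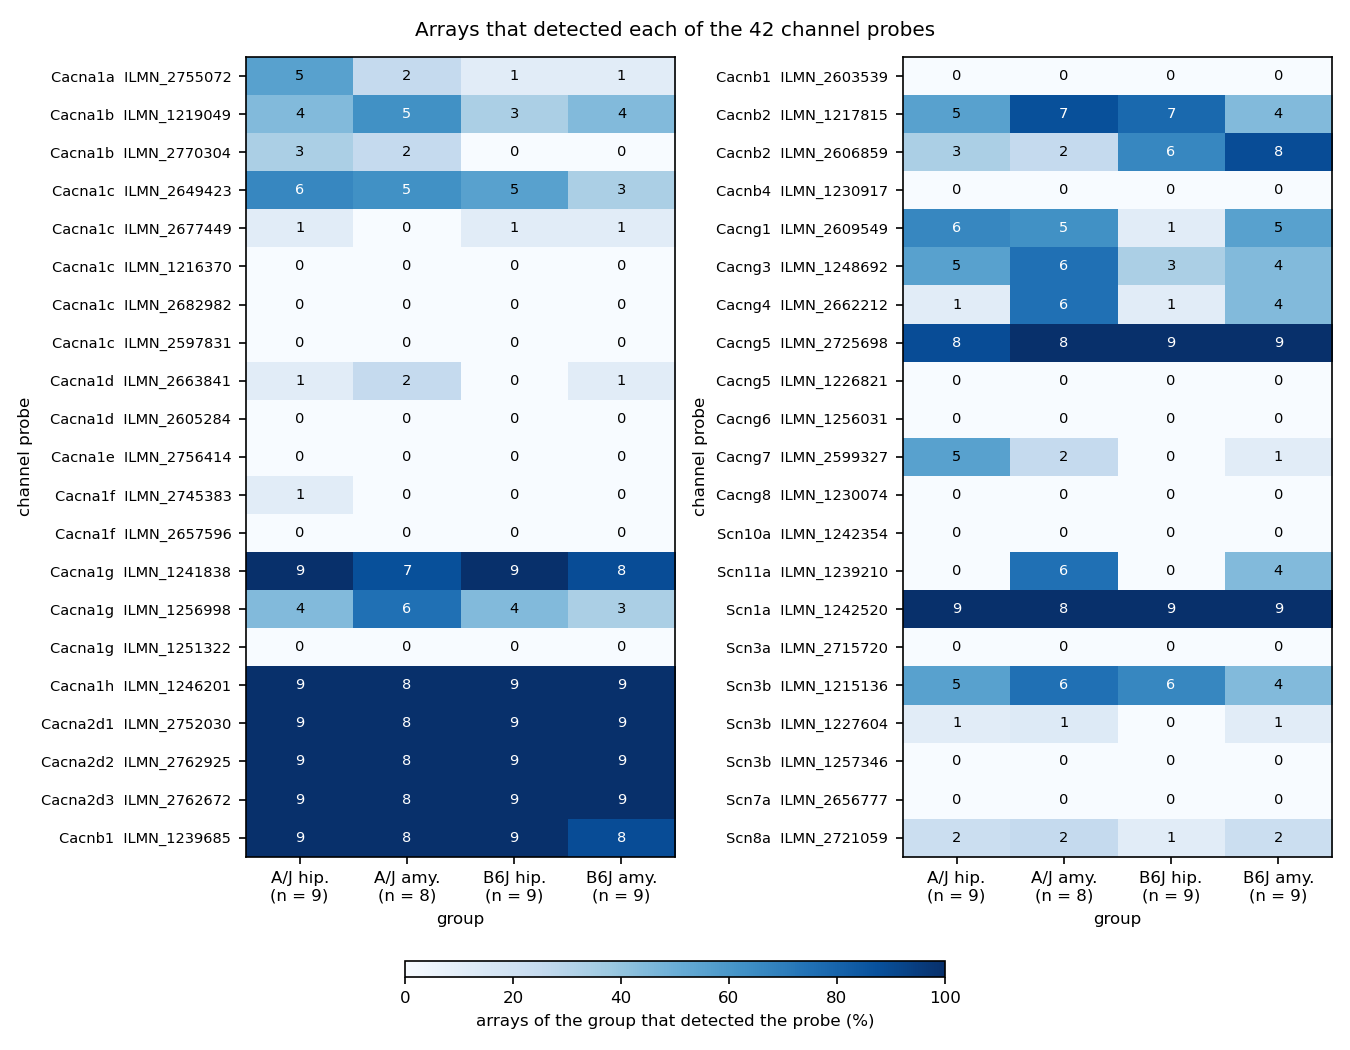
The number in each cell is how many arrays of the group (columns, hip. for hippocampus, amy. for amygdala, B6J for C57BL/6J) detected the channel probe (rows), and the colour gives it as a percent of the group. The rows of Cacna1h, Cacna2d1, Cacna2d2, Cacna2d3 and Scn1a are filled in every group, and the Scn11a row is at 0 in both hippocampus groups.

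Measured on every array were the T-type calcium pore Cacna1h, the alpha2delta subunits Cacna2d1, Cacna2d2 and Cacna2d3, and the sodium pore Scn1a. The main Cacnb1 and Cacng5 probes were detected on 34 arrays and a probe for the T-type pore Cacna1g on 33. The other tested probes were near or below the detection limit on many arrays, although Scn3b reached a log2 level of 8.75 and Cacng3 one of 7.93. The number of detecting arrays was 23 and 19 for 2 probes of the beta subunit Cacnb2, 21 for Scn3b, 19 for the L-type pore Cacna1c, 18 for Cacng3, 17 for Cacng1 and for a second probe of Cacna1g, and 16 for the N-type pore Cacna1b. It was 12 for Cacng4, 10 for Scn11a, 9 for the P/Q-type pore Cacna1a and 8 for Cacng7. At levels near the limit a normalised value is partly background, and differences are compressed.

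No probe was tested for 10 genes. Scn8a, a sodium pore of the axon initial segment, was detected on 7 arrays, the L-type pore Cacna1d on at most 4, and the retinal L-type pore Cacna1f on at most 1. The R-type pore Cacna1e, the beta subunit Cacnb4, the gamma genes Cacng6 and Cacng8 and the sodium pores Scn3a, Scn7a and Scn10a were detected on 0 of 35 arrays. Several of these genes are known to be transcribed in forebrain, Cacng8 strongly so in hippocampus, and a probe that is not detected gives no level of its gene. Probes of one gene also differed. Of 5 Cacna1c probes 1 was tested, 3 were detected on 0 arrays and the other on 3, and a second Cacng5 probe was detected on 0 arrays although the first was detected on 34. A second Cacnb1 probe was likewise detected on 0 arrays. The last Cacna1g probe and another Scn3b probe were at 0 too, and a further Scn3b probe was detected on 3 arrays and a second Cacna1b probe on 5.

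The first question was how the channel genes differed between the regions. In 1 limma fit of the 4 group means, with Benjamini-Hochberg adjustment over all 10408 tested probes, 4 of the 20 channel probes passed the threshold of 0.01 for the region difference, the mean over both strains of hippocampus minus amygdala. Over all tested probes 12.2% passed. Of the channel probes 1 was higher in hippocampus (Cacna1h), where 6.42% of all tested probes were, and 3 were lower (Cacna2d2, Scn11a and Cacna2d3), where 5.76% were. Of these, Scn11a was tested only because amygdala arrays detected it, so that the filter favoured its direction and nothing is read from the comparison of this count with that share. At an unadjusted p under 0.05 there were 10 channel probes, Scn11a and Cacng4 among them, beside 2756 of all 10408 tested probes. Cacng4, detected on 2 hippocampus and 10 amygdala arrays, also met the filter through amygdala, so nothing is read from this comparison either. The median region difference of the 20 probes was 0.04, beside 0.00 over all tested probes, and its median size was 0.32, beside 0.16. The labels do not tie hippocampus and amygdala samples to animals, so samples of the 2 regions may share mice without a block in the fit. In tissue punches, fewer cells that use a gene and less RNA per cell cannot be told apart.

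**Figure D2:**
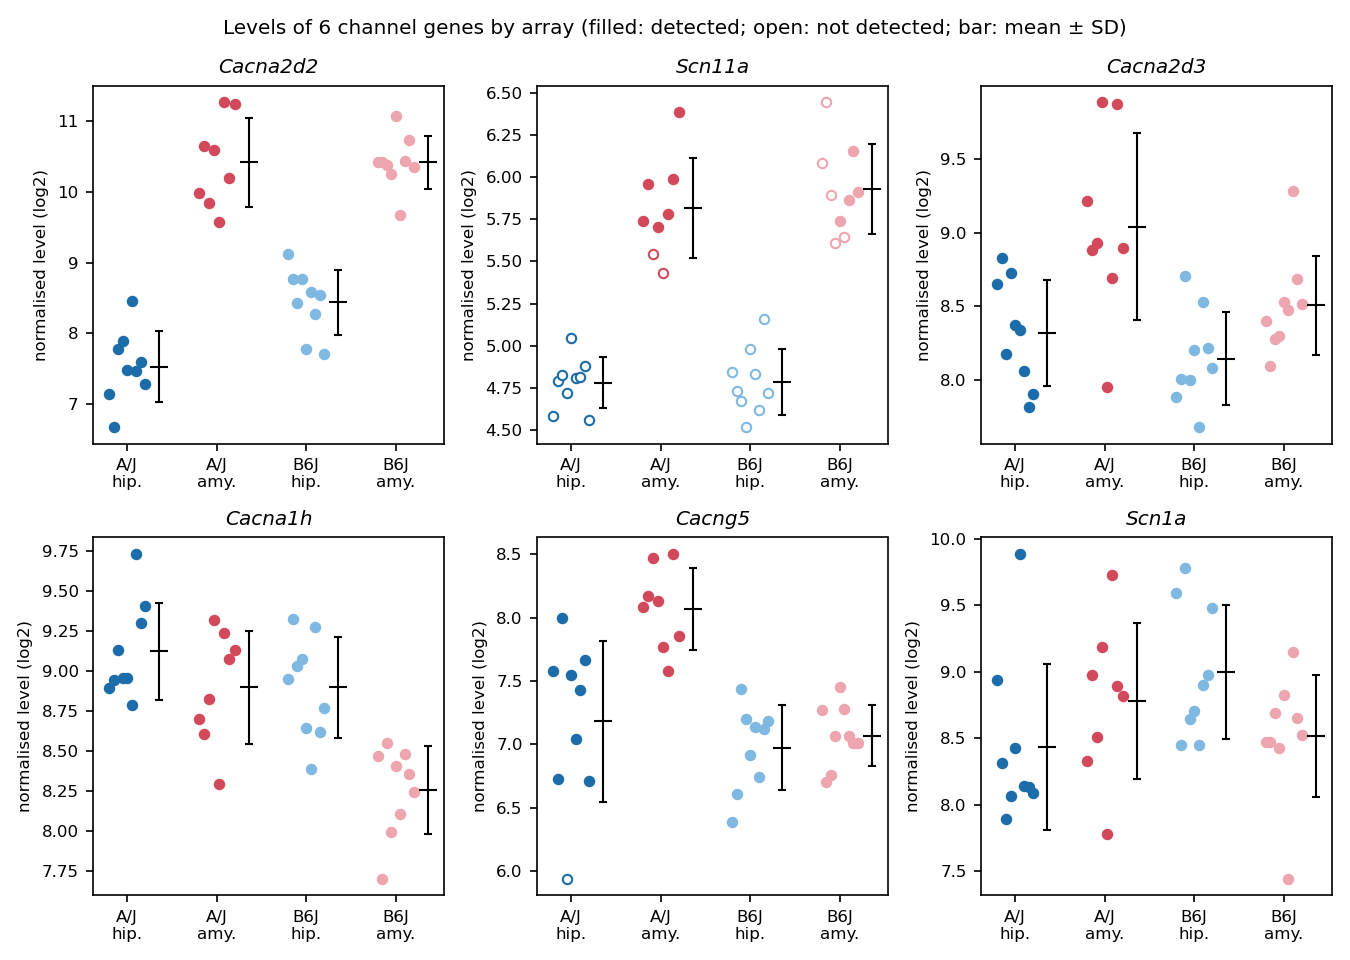
Each point is the normalised log2 level of a gene on 1 array, filled where the array detected the probe and open where it did not, and the bars are the mean ± SD of each group (n = 9, 8, 9 and 9 from left to right, hip. for hippocampus, amy. for amygdala, B6J for C57BL/6J). Cacna2d2 and Scn11a do not overlap between the regions, with all Scn11a points of hippocampus open, C57BL/6J amygdala is the lowest group of Cacna1h, A/J amygdala is the highest of Cacng5, and the groups of Scn1a overlap.

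Cacna2d2, an alpha2delta subunit that brings calcium channels to the surface and whose loss in mice causes ataxia and seizures, had the largest difference of the channel genes. Its normalised log2 level ran from 6.68 through a median of 7.49 to 8.46 on the A/J hippocampus arrays and from 9.57 through 10.39 to 11.26 on the A/J amygdala arrays. In C57BL/6J it ran from 7.72 through 8.54 to 9.12 in hippocampus and from 9.67 through 10.42 to 11.07 in amygdala. Every hippocampus array was thus below every amygdala array. The region difference was -2.43 ± 0.16 on the log2 scale (± SE, 5.38-fold lower in hippocampus, adjusted p = 2.31e-14 by limma). It was -2.89 ± 0.24 within A/J (adjusted p = 9.62e-12) and -1.97 ± 0.23 within C57BL/6J (adjusted p = 3.48e-08), and -2.50 within chip lot 1 and -2.26 within lot 2 over both strains. Within C57BL/6J on the few arrays of lot 2 it was -1.65 (adjusted p = 0.0312). Between the strains, the difference in hippocampus was -0.91 ± 0.23, with A/J lower (adjusted p = 0.00963), while the amygdala difference was 0.00 with a 95% interval of -0.48 to 0.48. The interaction was -0.91 and did not pass (adjusted p = 0.42). The strain difference in hippocampus stood just inside the threshold. It was lost when any one of 25 arrays was left out (adjusted p from 0.0101 to 0.0297) and kept without A/J hippocampus replicates 4 and 6, A/J amygdala replicates 3, 5, 6 and 8, C57BL/6J hippocampus replicates 5 and 9 or C57BL/6J amygdala replicates 5 and 6. Of 13 alternatives 10 ended the call and 3 kept it. The difference was -0.57 within lot 1 (adjusted p = 0.74) and -1.38 within lot 2 (adjusted p = 0.0264), and -0.18 in the authors' processed values (adjusted p = 0.78).

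The striatal list, like Cacna2d2, was lower in hippocampus, as given above. So were 3 of 6 tested markers of GABA neurons (Gad1, Slc32a1 and Sst). The summed level of the GABA list was 9990 to 17600 in hippocampus and 18200 to 28100 in amygdala arrays, with Gad2, Vip and Lhx6 detected on 0 arrays. Markers of glutamatergic neurons moved the other way, with 4 of 4 higher in hippocampus and sums of 9930 to 25400 in hippocampus and 2930 to 8600 in amygdala, and 7 of 8 oligodendrocyte markers were lower in hippocampus (sums of 11500 to 44100 in hippocampus and 19700 to 59200 in amygdala). Of 6 tested thalamus markers 4 were higher in hippocampus (sums of 2250 to 12400 in hippocampus and 1220 to 4550 in amygdala), and of 5 of choroid plexus and meninges 1 was higher (Dcn) and 1 lower (Clic6). Of the tested markers of astrocytes (5), microglia (5) and endothelium (4), 0 passed by region, and the smallest adjusted p among them was 0.10 (Aif1), while the microglial C1qb was lower in A/J (-1.13, adjusted p = 2.86e-06). The part of these cell types in the channel differences was not tested.

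Scn11a encodes a tetrodotoxin-resistant sodium pore best known from the pain-sensing neurons of the dorsal root ganglia. It was detected on 0 of 9 A/J and 0 of 9 C57BL/6J hippocampus arrays, against 6 of 8 A/J and 4 of 9 C57BL/6J amygdala arrays. Its normalised log2 level was 4.56 to 5.04 in A/J hippocampus (median 4.81) and 5.43 to 6.38 in A/J amygdala (median 5.76). In C57BL/6J it was 4.52 to 5.16 in hippocampus (median 4.73) and 5.61 to 6.44 in amygdala (median 5.89). The regions did not overlap, although most of the levels lay close to the detection limit of the arrays. Scn11a met the filter of 8 arrays through amygdala alone, and its level in hippocampus has only an upper bound. The measured means were 4.78 in hippocampus (n = 18) and 5.88 in amygdala (n = 17). The amygdala mean was also set against the lowest level that each hippocampus array detected, or its own level where that was higher. On this footing Scn11a was 1.15-fold lower in hippocampus, or 1.14-fold within A/J and 1.16-fold within C57BL/6J. The amygdala mean takes in arrays that did not detect the probe (10 of 17 did), so these folds are not strict bounds. The p of the measured difference (adjusted p = 1.92e-12 by limma) rests on values below the detection limit in hippocampus. The size of the difference is therefore unknown. Its strain difference was -0.06, with a 95% interval of -0.23 to 0.12. Scn10a, the protein-coding gene beside Scn11a on chromosome 9 and another pore of sensory neurons, was detected on 0 arrays in either region.

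Cacna2d3, another alpha2delta subunit, was also lower in hippocampus, by a smaller amount. Its log2 level ran from 7.82 to 8.83 in A/J hippocampus (median 8.34) and from 7.95 to 9.88 in A/J amygdala (median 8.91). In C57BL/6J it ran from 7.68 to 8.71 in hippocampus (median 8.08) and from 8.10 to 9.28 in amygdala (median 8.47). The groups overlapped in both strains. The region difference was -0.54 ± 0.14 (1.45-fold, adjusted p = 0.00508), -0.72 ± 0.20 within A/J (adjusted p = 0.0127) and -0.36 ± 0.20 within C57BL/6J (adjusted p = 0.36). It was -0.64 within lot 1 (adjusted p = 0.0309) and -0.36 within lot 2 (adjusted p = 0.48). The call was lost without A/J amygdala replicate 4 (adjusted p = 0.0109) or 7 (adjusted p = 0.0112).

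The remaining alpha2delta gene, Cacna2d1, which encodes the best known target of gabapentin, did not pass. Its level was 8.11 to 10.08 in A/J hippocampus and 7.71 to 9.56 in A/J amygdala, against 8.18 to 11.23 in C57BL/6J hippocampus and 7.68 to 9.90 in C57BL/6J amygdala. The region difference was 0.54 ± 0.26 (adjusted p = 0.19), with a 95% interval of 0.00 to 1.07, so of the 3 alpha2delta genes Cacna2d2 and Cacna2d3 were lower in hippocampus and Cacna2d1 had an estimate of the other sign. Its level was lower on arrays that detected more probes, with Pearson's r = -0.75 in hippocampus (permutation p = 0.00044, adjusted p = 0.0018) and -0.64 in amygdala (permutation p = 0.0061, adjusted p = 0.014).

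The promoters of the 3 genes that were lower in hippocampus are shown so that the sequences around their starts can be compared. They run 5′ to 3′ on the gene's own strand from 250 bases before to 50 bases after the start that RefSeq gives in GRCm38.p6, for Cacna2d2 on chr9:107399630-107399929 (plus strand), for Cacna2d3 on chr14:29721815-29722114 (minus strand) and for Scn11a on chr9:119825407-119825706 (minus strand). Capitals mark matches on either strand to GGGCGG, the letters of the GC box.
Cacna2d2: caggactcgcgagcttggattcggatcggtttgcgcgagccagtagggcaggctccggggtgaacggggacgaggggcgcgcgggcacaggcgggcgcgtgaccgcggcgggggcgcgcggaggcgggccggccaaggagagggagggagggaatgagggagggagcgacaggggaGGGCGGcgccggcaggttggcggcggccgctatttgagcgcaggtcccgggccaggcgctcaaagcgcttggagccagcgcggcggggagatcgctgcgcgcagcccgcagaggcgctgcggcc
Cacna2d3: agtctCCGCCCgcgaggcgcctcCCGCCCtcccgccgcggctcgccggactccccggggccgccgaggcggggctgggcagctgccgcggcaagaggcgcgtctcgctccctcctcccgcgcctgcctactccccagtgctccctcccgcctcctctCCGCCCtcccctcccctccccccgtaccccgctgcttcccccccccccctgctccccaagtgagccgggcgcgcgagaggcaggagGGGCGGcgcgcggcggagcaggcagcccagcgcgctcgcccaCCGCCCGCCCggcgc
Scn11a: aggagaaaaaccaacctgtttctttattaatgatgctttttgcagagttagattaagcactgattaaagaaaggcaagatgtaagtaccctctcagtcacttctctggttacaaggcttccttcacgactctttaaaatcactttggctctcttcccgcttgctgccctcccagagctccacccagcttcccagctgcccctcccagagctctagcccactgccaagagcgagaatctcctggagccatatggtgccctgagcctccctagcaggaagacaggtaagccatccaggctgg
The 2 alpha2delta promoters are rich in G and C (75.7% in Cacna2d2 and 81.3% in Cacna2d3, with 43 and 41 CG pairs), whereas that of Scn11a has 50.3% and 3 CG pairs. The medians over the 32851 promoters of the table are 52.7% and 7. Cacna2d2 has 1 GC box, Cacna2d3 has 6, of which 2 overlap each other, and Scn11a has 0. A GC box stands in 35.7% of all promoters of this length. The TATA box letters TATAAA, searched on both strands and found in 13.6% of all promoters, occur in 0 of these 3. Promoters were matched by symbol for 12 of the 18 tested genes, 17 promoters in all, of which 9 hold a GC box and 0 the TATA letters. These are matches of letters, not sites, and none is set against the region differences.

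Cacna1h, a pore of the low-voltage-activated T-type calcium channels that support burst firing, was the channel gene that was higher in hippocampus. Its log2 level was 8.79 to 9.73 in A/J hippocampus (median 8.96) and 8.29 to 9.32 in A/J amygdala (median 8.95). In C57BL/6J it was 8.39 to 9.33 in hippocampus (median 8.95) and 7.70 to 8.55 in amygdala (median 8.35). C57BL/6J amygdala was the group that stood low, with its highest array below 8 of the 9 C57BL/6J hippocampus arrays. The region difference was 0.43 ± 0.11 (1.35-fold, adjusted p = 0.0035), with 0.64 ± 0.15 within C57BL/6J (adjusted p = 0.0034) and 0.22 ± 0.16 within A/J (adjusted p = 0.43). The strain difference had the same size, 0.43 ± 0.11 higher in A/J (adjusted p = 0.00628), with 0.64 ± 0.16 within amygdala (adjusted p = 0.00667) and 0.23 ± 0.15 within hippocampus (adjusted p = 0.72). The interaction was -0.42 and did not pass (adjusted p = 0.67), so the effect is not shown to differ between strains or regions. Without the 8 shallow arrays, which detected under 7000 probes, the strain difference was 0.44 (adjusted p = 0.0277). Within lots 1 and 2 the region difference was 0.43 and 0.57 (adjusted p = 0.0819 and 0.0784) and the strain difference 0.57 and 0.33 (adjusted p = 0.0324 and 0.31). The strain call was lost when any one of 14 arrays was left out (adjusted p from 0.0103 to 0.0141), namely A/J hippocampus replicates 7, 8 and 9, A/J amygdala replicates 4, 6, 7 and 8, C57BL/6J hippocampus replicates 5, 6, 8 and 9 and C57BL/6J amygdala replicates 2, 4 and 6. The call within amygdala was lost without any of A/J amygdala replicates 4, 6, 7 and 8 or C57BL/6J amygdala replicates 2, 4 and 6 (adjusted p from 0.0138 to 0.0226), and in 5 of 13 alternatives (adjusted p up to 0.19), namely the authors' processed values under both filters, each lot alone and without the shallow arrays. The region call within C57BL/6J was lost in 4 of 13 alternatives (adjusted p up to 0.19), namely the processed values of probes detected on at least 1 array, each lot alone and without the shallow arrays. It was lost without C57BL/6J hippocampus replicate 2 (adjusted p = 0.0103) or C57BL/6J amygdala replicate 2 (adjusted p = 0.0109), while the region call over both strains was kept without each array in turn.

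**Figure D3:**
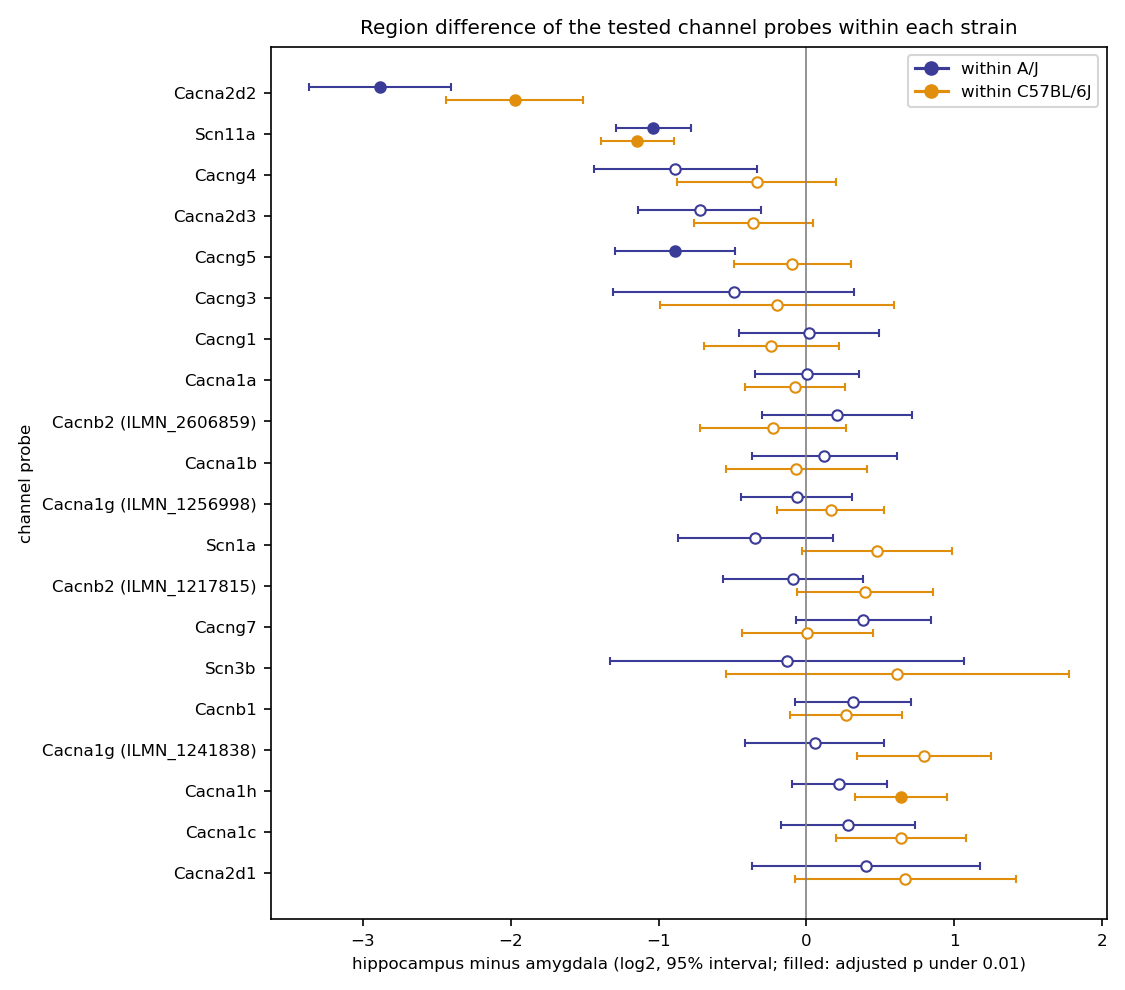
Each row is a tested channel probe, with its region difference (hippocampus minus amygdala, log2) within A/J and within C57BL/6J and the 95% interval, and filled points passed an adjusted p under 0.01. Cacna2d2 and Scn11a are filled in both strains, with Scn11a set against an undetected hippocampus, Cacng5 only in A/J and Cacna1h only in C57BL/6J.

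Within A/J alone 3 channel probes passed by region (Cacna2d2, Cacng5 and, through amygdala arrays alone, Scn11a, all lower in hippocampus), where 8.63% of all tested probes did. Within C57BL/6J alone 3 passed (Cacna2d2 and Scn11a lower and Cacna1h higher in hippocampus), where 6.1% of all tested probes did. No test of an interaction passed for any of these genes. Over all tested probes 0.0673% passed for the interaction, 7 probes, and of the channel probes 0 of 20 did by limma. For the interaction, 4 channel probes had an unadjusted p under 0.05, beside 798 of all 10408 tested probes. These 4 were Cacna2d2, Cacng5 (-0.79, adjusted p = 0.39), Scn1a (-0.82, adjusted p = 0.58) and the better detected Cacna1g probe (-0.74, adjusted p = 0.58), each with the lower region difference in A/J.

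The second question was how the channel genes differed between the strains. Of the 20 channel probes 2 passed for the strain difference, the mean over both regions of A/J minus C57BL/6J, and both (Cacng5 and Cacna1h) were higher in A/J. Over all tested probes 5.89% passed, with 2.05% higher and 3.84% lower in A/J. At an unadjusted p under 0.05 there were 6 channel probes, beside 2095 of all 10408 tested probes. Among the 6, the Cacnb2 probe detected on 19 arrays met the filter through C57BL/6J (14 arrays, and 5 of A/J). Cacng7 was detected on 7 A/J arrays and 1 C57BL/6J array. The filter favoured the direction of both, and nothing is read from this comparison. Within hippocampus 1 channel probe passed (Cacna2d2, lower in A/J), where 3.38% of all tested probes did, and within amygdala 2 passed (Cacng5 and Cacna1h, higher in A/J), where 4.02% did. The striatal sum was 2150 to 10500 in A/J amygdala and 1230 to 4990 in C57BL/6J amygdala arrays. The thalamus sum was 2250 to 7560 in A/J hippocampus and 3760 to 12400 in C57BL/6J hippocampus arrays. Of either list 0 genes passed by strain. The part of such punch content in the strain differences was not tested.

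Cacng5 encodes gamma5, a member of the family whose close relatives escort AMPA receptors. Its log2 level was 5.94 to 8.00 in A/J hippocampus (median 7.43) and 7.58 to 8.51 in A/J amygdala (median 8.11). In C57BL/6J it was 6.39 to 7.44 in hippocampus (median 7.12) and 6.71 to 7.45 in amygdala (median 7.07). Every A/J amygdala array was above every C57BL/6J array of either region. The strain difference was 0.61 ± 0.14 (1.52-fold higher in A/J, adjusted p = 0.00249), and 1.0 ± 0.20 within amygdala (2.0-fold, adjusted p = 0.000669), beside 0.21 ± 0.19 within hippocampus (adjusted p = 0.87). Within A/J the region difference was -0.89 ± 0.20, lower in hippocampus (adjusted p = 0.00159), and within C57BL/6J it was -0.10, with a 95% interval of -0.49 to 0.30. Over both strains the region difference was -0.49 ± 0.14 and stood just outside the threshold (adjusted p = 0.0101), with -0.38 within lot 1 and -0.62 within lot 2. It passed without any one of A/J hippocampus replicates 1, 3, 5 and 8, A/J amygdala replicates 5 and 6, C57BL/6J hippocampus replicate 3 and C57BL/6J amygdala replicates 2 and 3 (adjusted p from 0.00317 to 0.00875). The strain difference was 0.50 within lot 1 (adjusted p = 0.0514) and 0.79 within lot 2 (adjusted p = 0.21), and its call was kept without each array in turn. On the compressed scale of the authors' processed values it was 0.09 (adjusted p = 0.000232), and 0.16 within amygdala (adjusted p = 3.75e-05). Within amygdala it was 0.84 and 1.23 in lots 1 and 2 (adjusted p = 0.019 and 0.19), and the region difference within A/J was -0.71 and -1.05 (adjusted p = 0.0712 and 0.17), so that none of these passed in 1 lot alone.

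**Figure D4:**
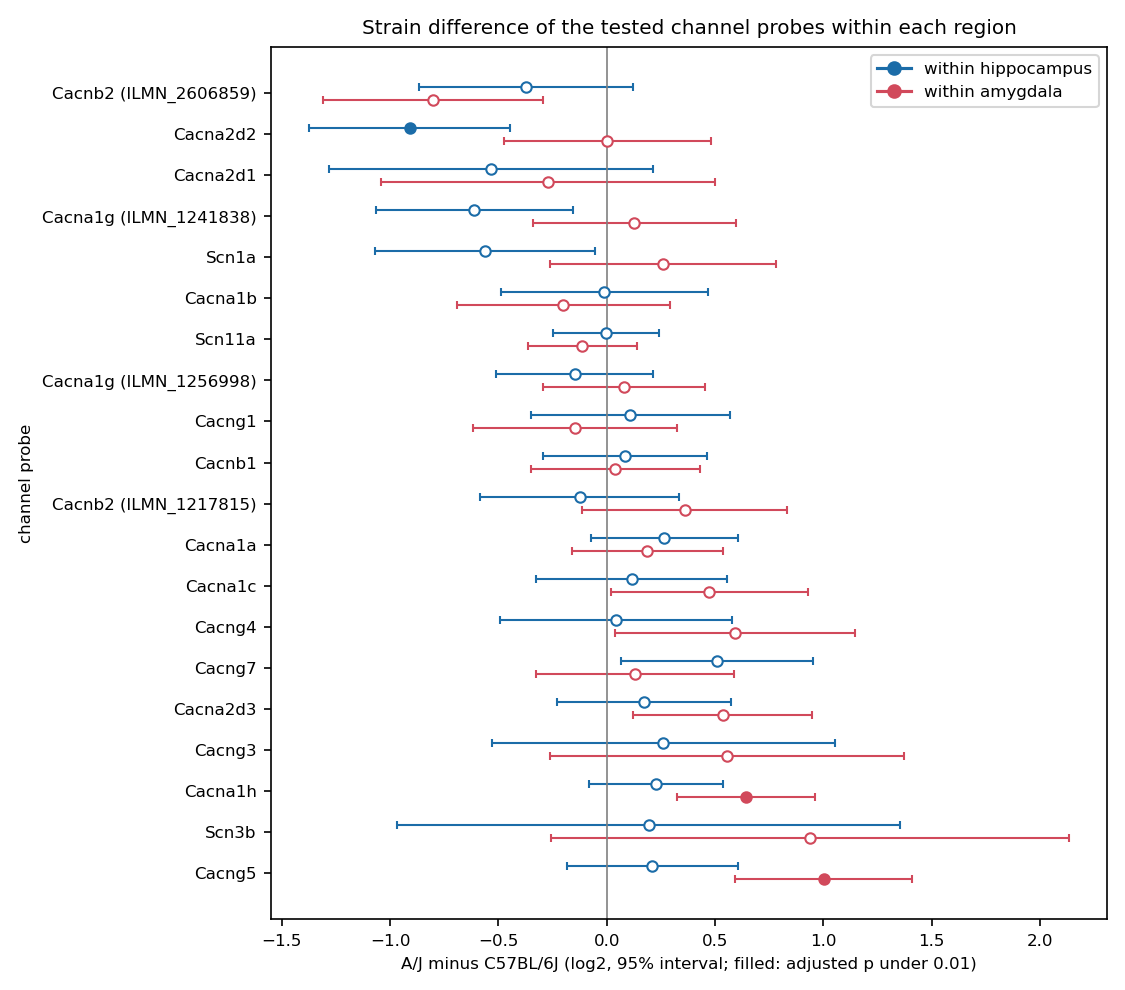
Each row is a tested channel probe, with its strain difference (A/J minus C57BL/6J, log2) within hippocampus and within amygdala and the 95% interval, and filled points passed an adjusted p under 0.01. Cacng5 and Cacna1h are filled in amygdala at 1.0 and 0.64, and Cacna2d2 in hippocampus at -0.91.

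The gamma genes Cacng1, Cacng4 and Cacng5 lie next to each other on chromosome 11, with 0 other protein-coding genes of the RefSeq table between neighbours. Cacng4, an AMPA receptor regulatory protein, was detected on 1 of 9 A/J hippocampus arrays and 6 of 8 A/J amygdala arrays, and on 1 of 9 C57BL/6J hippocampus arrays and 4 of 9 C57BL/6J amygdala arrays. Its log2 level was 4.39 to 5.31 in A/J hippocampus and 4.40 to 6.61 in A/J amygdala, and 4.42 to 5.54 in C57BL/6J hippocampus and 4.35 to 6.04 in C57BL/6J amygdala. The region difference of -0.61 ± 0.19 did not pass (adjusted p = 0.0201). It passed without A/J amygdala replicate 3 (adjusted p = 0.00651) or 5 (adjusted p = 0.00438) and with the number of detected probes as a covariate (-0.54, adjusted p = 0.000901). Detected on 10 amygdala and 2 hippocampus arrays, Cacng4 met the filter of 8 arrays through amygdala. The filter thus favoured this direction, and nothing is read from the settings in which it passed. The strain difference of Cacng4 was 0.32 ± 0.19 (adjusted p = 0.37). Cacng1, the gamma subunit of the muscle calcium channel, had a region difference of -0.11 ± 0.16 (adjusted p = 0.77) and a strain difference of -0.02 ± 0.16 (adjusted p = 0.95).

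Of the gamma genes on chromosome 7, Cacng3, an AMPA receptor regulatory protein, had a region difference of -0.34 ± 0.28 (adjusted p = 0.51) and a strain difference of 0.41 ± 0.28 (adjusted p = 0.44). Cacng7, a relative of Cacng5 and the protein-coding neighbour of Cacng8, was detected on 5 of 9 A/J hippocampus arrays, 2 of 8 A/J amygdala arrays, 0 of 9 C57BL/6J hippocampus arrays and 1 of 9 C57BL/6J amygdala arrays. Its region difference was 0.20 ± 0.16 (adjusted p = 0.50) and its strain difference 0.32 ± 0.16 (adjusted p = 0.25). Of the 8 arrays that detected Cacng7, 7 were of A/J, so the filter favoured the direction of its strain difference. No fold is given against C57BL/6J hippocampus, since the fold against the lowest detected levels there was under 1.

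The high-voltage-activated calcium pores showed no region or strain call. Cacna1a had a region difference of -0.04 ± 0.12 (adjusted p = 0.92) and a strain difference of 0.23 ± 0.12 (adjusted p = 0.29). Cacna1b had 0.03 ± 0.17 by region (adjusted p = 0.96) and -0.11 ± 0.17 by strain (adjusted p = 0.75). Cacna1c, measured by 1 of its 5 probes, was the nearest to a call, with 0.46 ± 0.16 by region (1.38-fold, adjusted p = 0.0338) and 0.29 ± 0.16 by strain (adjusted p = 0.29). Its log2 level was 5.09 to 6.46 in A/J hippocampus and 4.60 to 5.94 in A/J amygdala, and 5.06 to 6.35 in C57BL/6J hippocampus and 4.61 to 5.54 in C57BL/6J amygdala, so the groups overlapped. With the number of detected probes as a covariate the region difference of Cacna1c passed (0.51, adjusted p = 0.000669).

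Cacna1g, the other T-type pore measured, had 2 tested probes. The better detected one ran from 6.20 to 7.04 in A/J hippocampus and from 5.60 to 7.63 in A/J amygdala, and from 6.51 to 7.99 in C57BL/6J hippocampus and from 5.51 to 6.86 in C57BL/6J amygdala. It had a region difference of 0.43 ± 0.16 (adjusted p = 0.0637), made of 0.80 ± 0.22 within C57BL/6J (adjusted p = 0.0164) and 0.06 ± 0.23 within A/J (adjusted p = 0.92), and a strain difference of -0.24 ± 0.16 (adjusted p = 0.42). The weaker probe ran from 5.01 to 5.86 in A/J hippocampus and from 5.27 to 6.05 in A/J amygdala, and from 5.26 to 6.53 in C57BL/6J hippocampus and from 4.86 to 6.28 in C57BL/6J amygdala. Its differences were 0.05 ± 0.13 by region (adjusted p = 0.89) and -0.03 ± 0.13 by strain (adjusted p = 0.90).

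The beta subunits hold the pore at the membrane. Cacnb1 had a region difference of 0.29 ± 0.13 (adjusted p = 0.15) and a strain difference of 0.06 ± 0.13 (adjusted p = 0.81). The 2 probes of Cacnb2 disagreed by strain. The probe detected on 23 arrays, with log2 levels of 5.22 to 6.78 in A/J hippocampus, 5.06 to 6.67 in A/J amygdala, 5.34 to 6.74 in C57BL/6J hippocampus and 4.80 to 6.34 in C57BL/6J amygdala, had a strain difference of 0.12 ± 0.16 (adjusted p = 0.70). The other, which 5 of 17 arrays detected in A/J and 14 of 18 in C57BL/6J, ran from 5.12 to 6.11 in A/J hippocampus and from 4.47 to 5.92 in A/J amygdala, and from 5.10 to 6.64 in C57BL/6J hippocampus and from 5.33 to 7.11 in C57BL/6J amygdala. Its strain difference was -0.59 ± 0.17 (adjusted p = 0.0267). This probe met the filter through C57BL/6J arrays, which favoured its direction. Neither probe passed, and whether a base difference or an isoform lies under either was not tested. By region they had 0.15 ± 0.16 (adjusted p = 0.65) and -0.01 ± 0.17 (adjusted p = 0.99).

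Of the sodium channel genes, Scn1a, the pore of fast-spiking inhibitory neurons that is mutated in Dravet syndrome, was detected on all 35 arrays. Its probe on chromosome 2 has 50 bases, shown here as an example of what a level on these arrays rests on.
Scn1a probe: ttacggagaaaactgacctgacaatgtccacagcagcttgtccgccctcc
The Scn1a level was 7.89 to 9.89 in A/J hippocampus (median 8.14) and 7.78 to 9.73 in A/J amygdala (median 8.86), and 8.45 to 9.78 in C57BL/6J hippocampus (median 8.90) and 7.44 to 9.15 in C57BL/6J amygdala (median 8.52). The groups overlapped in both comparisons. The region difference was 0.07, with a 95% interval of -0.30 to 0.43 (adjusted p = 0.89), and the strain difference -0.15, with an interval of -0.52 to 0.21 (adjusted p = 0.66). Scn3b, a beta subunit, varied most of all channel probes within groups, with SDs of 1.46 and 1.09 log2 units in A/J hippocampus and A/J amygdala and of 1.30 and 1.24 in C57BL/6J hippocampus and C57BL/6J amygdala. Its region difference was 0.24 ± 0.41 (adjusted p = 0.80) and its strain difference 0.57 ± 0.41 (adjusted p = 0.46).

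The number of probes that an array detected went along with the level of several channel genes. Within hippocampus (n = 18) and within amygdala (n = 17) the level of each tested probe was set against that number, 40 relations in all, with 100000 permutations each, for which the smallest p possible is 1e-05. After Benjamini-Hochberg adjustment over the 40, 5 relations with r above 0 and 3 with r below 0 passed 0.01 in hippocampus, and 4 and 3 passed in amygdala. The relation was not computed for the other probes of the arrays, so these counts have no share to stand beside. They are not read as particular to channel genes. Scn3b, Cacng3 and Cacng4 passed in both regions with r above 0, and Cacna1b and Cacng1 in both with r below 0. For Scn3b Pearson's r was 0.87 in hippocampus (permutation p = 2e-05, adjusted p = 0.00027, Spearman's rho = 0.86 with permutation p = 2e-05) and 0.89 in amygdala (permutation p = 1e-05, adjusted p = 0.0002, rho = 0.84 with permutation p = 5e-05). Without the 2 arrays of most extreme depth r was 0.86 and 0.87, and within lots 1 and 2 it was 0.80 and 0.95 in hippocampus and 0.89 and 0.94 in amygdala. For Cacna1b r was -0.90 in hippocampus (permutation p = 1e-05, adjusted p = 0.0002, rho = -0.85 with permutation p = 3e-05) and -0.79 in amygdala (permutation p = 0.00014, adjusted p = 0.00093, rho = -0.88 with permutation p = 2e-05), with -0.85 and -0.80 without the 2 extreme arrays and -0.88 and -0.96 within lots 1 and 2 in hippocampus and -0.77 and -0.81 in amygdala. For Cacng4 r was 0.65 in hippocampus (permutation p = 0.0034, adjusted p = 0.0091, rho = 0.69 with permutation p = 0.0021) and 0.88 in amygdala (permutation p = 4e-05, adjusted p = 0.0004, rho = 0.82 with permutation p = 0.0001), with 0.66 and 0.86 without the 2 extreme arrays and 0.54 and 0.77 within lots 1 and 2 in hippocampus and 0.84 and 0.98 in amygdala.

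Among the genes with a region or strain call, 0 passed in this test. For Cacna2d2 r was -0.48 in hippocampus (permutation p = 0.042, adjusted p = 0.07) and 0.27 in amygdala (permutation p = 0.3, adjusted p = 0.35), and within A/J hippocampus it was -0.74. For Scn11a it was -0.58 in hippocampus (permutation p = 0.012, adjusted p = 0.023) and 0.00 in amygdala (permutation p = 0.99). For Cacna1h, Cacna2d3 and Cacng5 it lay between 0.06 and 0.42. With depth as a covariate in the fit, the region differences of Cacna2d2, Cacna2d3 and Cacna1h were -2.44, -0.53 and 0.45, and the strain differences of Cacng5 and Cacna1h 0.58 and 0.40, and all passed.

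**Figure D5:**
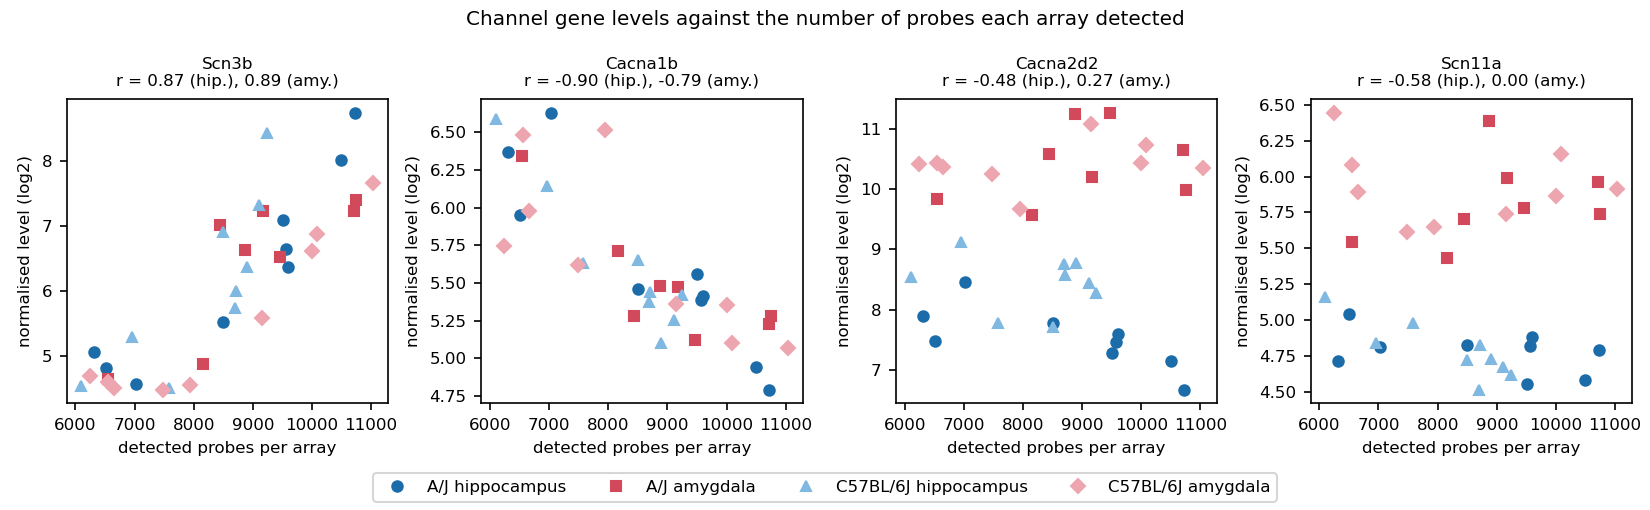
Normalised log2 level of 4 channel genes against the number of probes detected on each array, with 1 point per array, coloured by group, and Pearson's r within hippocampus (hip., n = 18) and amygdala (amy., n = 17). Scn3b climbs and Cacna1b declines with depth in all groups, whereas Cacna2d2 and Scn11a form a hippocampus band below an amygdala band over the whole range of depth.

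Genes that work with these channels were counted from 4 lists, with 1 probe per gene and p-values adjusted over all tested probes. Of 19 tested regulators and presynaptic partners of calcium channels, 7 were higher in hippocampus, 1 was lower and 11 did not pass, with a median difference of 0.37. The 7 were the calmodulin kinases Camk2a (1.75 ± 0.15, adjusted p = 5.08e-12) and Camk2b (0.87 ± 0.09), the active zone protein Erc2 (0.70 ± 0.15), the secreted alpha2delta ligand Thbs2 (0.77 ± 0.15), the release protein Stx1a (0.48 ± 0.12), the adaptor Stac2 (0.45 ± 0.12) and calmodulin Calm3 (0.37 ± 0.09). Thbs2 was detected on 12 hippocampus and 4 amygdala arrays and so met the filter through hippocampus, which favoured its direction. The kinase Camk2d was lower (-1.13 ± 0.23, adjusted p = 0.000309). Detected on 4 hippocampus and 11 amygdala arrays, Camk2d met the filter through amygdala, which favoured its direction. By strain 1 of the 19 passed, the channel-inhibiting GTPase Rem2, higher in A/J (0.65 ± 0.15, adjusted p = 0.00362). Gem, Unc13a and Thbs1 were detected on 0 arrays.

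Of 12 tested partners of sodium channels and of the axon initial segment, 3 were higher in hippocampus, 1 was lower and 8 did not pass, with a median of -0.04. Fgf13, an intracellular FGF that binds the tail of sodium channels, was 1.06 ± 0.12 higher (adjusted p = 1.87e-08), Nedd4l, a ubiquitin ligase for ion channels, 0.49 ± 0.09 higher, and the adhesion protein Nrcam 0.38 ± 0.08 higher, while Fgf12, a relative of Fgf13, was -0.52 ± 0.13 (adjusted p = 0.00463). By strain Cntn2 was higher in A/J (1.08 ± 0.21, adjusted p = 0.000342). Of 10 tested AMPA receptor partners of the gamma proteins, 3 were higher in hippocampus, 0 were lower and 7 did not pass, with a median of 0.26. They were the pentraxin Nptx1 (1.67 ± 0.30), the cornichon Cnih2 (1.08 ± 0.27, adjusted p = 0.00258), which was also lower in A/J (-1.05 ± 0.27, adjusted p = 0.0068), and the scaffold Dlg3 (0.45 ± 0.08). Nptx1 was detected on 13 hippocampus and 5 amygdala arrays and so met the filter through hippocampus, which favoured its direction. The receptor subunits Gria1, Gria2 and Gria3 did not pass (0.27 ± 0.38, 0.00 ± 0.23 and -0.43 ± 0.22). Of 5 tested genes of other channels of the same superfamily, 0 passed by region, with the smallest adjusted p for Nalcn (-0.55, adjusted p = 0.0447), and Catsper2, a gene of the sperm calcium channel, was higher in A/J (0.52 ± 0.12, adjusted p = 0.00327). These counts stand beside 6.42% higher and 5.76% lower over all tested probes, and no list was tested against the rest. Since the filter favoured Thbs2, Camk2d and Nptx1, nothing is read from this comparison for the counts that hold them.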

How the data were processed

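RNA of 35 tissue samples was hybridized to Illumina MouseRef-8 V1.1 arrays, 1 sample per array. The authors deposited intensities from BeadStudio after subtraction of the mean of the negative control beads, from -55.4 to 37793.8, with 31.0% at or below 0. They also deposited a detection score per probe and array, which is 1 minus the detection p, and processed log2 values (Lumi variance stabilization and robust spline normalization by the authors, 7.40 to 14.66) for 24613 of the 24620 probes. Here the intensities were normalised with neqc in limma 3.58.1 (R 4.3.3), which corrects the background by normexp from the detection p, adds an offset of 16, scales by quantiles and takes log2. The number of arrays and the signal over background limit the precision. Probes detected at p under 0.01 on at least 8 arrays were tested in 1 limma fit of the 4 group means, with Benjamini-Hochberg adjustment over all 10408 and a threshold of 0.01. The fit was tested on simulated data. Groups come from the labels, replicate numbers only name samples, and p-values measure the spread between samples of individual mice. Gene symbols come from the platform table, in which 20984 probes have 1 symbol, 1 has several and 3635 have none. For a gene on a partner or marker list, 1 probe was used. A summed level is the sum of the normalised linear levels of all genes of a list that have a probe, tested or not. Every tested channel gene was named with its region and strain difference, those past the threshold or with 2 tested probes by their levels, and untested ones by the arrays that detected them. The members and lists were chosen with earlier results of these data known. Alternatives were the processed values, no background correction, a common median, other detection filters, the chip as a random block, the chip lot, depth as a covariate and each array left out in turn. The omission of arrays under 7000 detected probes was added after seeing the data.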

Additional observations from a re-analysis of the deposited data

Results flagged for a closer look

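In 8 of 80 groups of levels (20 tested probes in 4 groups) the highest or lowest array stood apart from the rest of its group by Dixon's criterion, which chance meets in about 1 of 20 groups. In C57BL/6J hippocampus, Cacng3 was highest at 7.25 and Cacng4 at 5.54 on the same array, replicate 7, where the next arrays had 5.73 and 4.80. That array detected 9239 probes, the most of its group. Cacng1 was highest at 6.44 on C57BL/6J hippocampus replicate 8, against 5.58 on the next array, although replicate 8 did not detect it and detected the fewest probes of all arrays, 6099. Cacng7 was highest at 5.77 on C57BL/6J amygdala replicate 9, against 5.02 on the next, and that array detected 11039 probes, the most of all. Cacna2d3 was highest at 9.28 on C57BL/6J amygdala replicate 7, against 8.68 on the next. Scn1a was lowest at 7.44 on C57BL/6J amygdala replicate 6, against 8.43 on the next. The better detected Cacna1g probe was lowest at 5.51 on C57BL/6J amygdala replicate 1, against 6.30 on the next, and the weaker Cacna1g probe was lowest at 5.01 on A/J hippocampus replicate 7, against 5.46 on the next. Neither Cacna1g value was detected.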

How the results depend on the processing

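The region calls of Cacna2d2 held under all 13 alternatives and those of Scn11a under 12, since it was not tested among probes detected on at least 17 arrays, and both held without each array in turn. In the authors' processed values, a compressed scale, they were -1.10 and -0.06, the region differences of Cacna2d3 and Cacna1h -0.19 and 0.14, and the strain differences of Cacng5 and Cacna1h 0.09 and 0.15. Of the counts of channel probes, those higher in hippocampus (1) became 2 with arrays scaled to a common median or with depth as a covariate and 0 within lot 1 and within lot 2. Those lower in hippocampus (3) became 5 with the chip as a block or with depth as a covariate, 2 within lot 1 and within lot 2, 4 with the processed values, no background correction or without shallow arrays, and 2 to 5 without each array in turn. Those higher in A/J (2) became 0 within lot 1 and within lot 2, 1 without the arrays under 7000 detected probes, and 1 to 2 without each array in turn. A common median added a region call of Cacna1c (0.42, adjusted p = 0.00962) and lost that of Cacna2d3 (-0.47, adjusted p = 0.0123). Region calls of Cacng4 were gained with a common median, the chip block, the covariate and without shallow arrays. Since Cacng4 met the filter through amygdala arrays, nothing is read from these. Region calls of Cacng5 were gained with the processed values, no background correction, detection on 17 arrays, the chip block and the covariate. Over all tested probes the region calls (1267) were 679 within lot 1 and 368 within lot 2, and the strain calls (613) 315 and 241. The interaction calls (7) ran from 0 within lot 2 to 14 with the covariate.

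The signs that turned were all of differences that had not passed. By region, Cacna1a was 0.0289 with a common median, 0.169 within lot 1 and 0.0936 without shallow arrays. Cacna1b was -2.6e-05 in the processed values under both filters, -0.321 within lot 2, -0.0400 with the covariate and -0.00146 without shallow arrays. The weaker Cacna1g probe was -0.36 and Cacnb1 -0.0198 within lot 2. The weaker Cacnb2 probe was 0.05935 with a common median, 0.0234 with the chip block, 0.0142 within lot 1 and 0.0399 without shallow arrays. By strain, Cacna1b was 0.00816 with the chip block and 0.0605 with the covariate. The weaker Cacna1g probe was 0.0221 within lot 1, 0.0313 with the covariate and 0.0879 without shallow arrays. Cacnb1 was -0.322 within lot 2, and the better detected Cacnb2 probe -0.00743 with the chip block. Cacng1 was 0.0223 with the chip block, 0.121 with the covariate and 0.0178 without shallow arrays, and Scn11a 0.0121 within lot 1 and 0.0303 without shallow arrays. The cause was not tested. Without each array in turn the region difference ran from -0.0357 to 0.0886 for Cacna1b, from -0.0015 to 0.10 for the weaker Cacna1g probe, from -0.0651 to 0.0570 for the weaker Cacnb2 probe and from -0.0240 to 0.14 for Scn1a, and the strain difference from -0.07675 to 0.0171 for the weaker Cacna1g probe and from -0.0925 to 0.04805 for Cacng1. No paired analysis was possible because the labels give the groups no shared replicate numbers and do not tie samples to mice.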
